A study of Mus musculus with 6 samples.

Results

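Collagen genes were followed across 3 treatments of mouse esophageal organoids, which are small gel-embedded epithelial cultures grown in matrigel. The members were all genes of the deposited expression table whose name has the form Col, number, a, number, which gave 44 of 52636 genes. They were sorted into classes by the kind of collagen they encode, with 11 fibrillar, 6 basement membrane (type IV), 9 FACIT and 4 transmembrane genes, 1 anchoring fibril gene, 2 multiplexins, 6 beaded filament (type VI) genes, 3 network genes (types VIII and X) and 2 others. The organoids came from esophagi of Krt5CreER:RosaSmoM2 (K5:Smo) mice, in which tamoxifen switches on SmoM2, a constitutively active Smoothened, in Krt5-positive basal cells. Every group carried this transgene, was started 5 days after tamoxifen and was cultured for 13 days, and no group was left without either ligands or inhibitor. The first group received TGFb1 at 1 ng/ml, BMP4 at 20 ng/ml and ibuprofen at 500 µM (TGFb1+BMP4+ibuprofen), the second the 2 ligands alone (TGFb1+BMP4), and the third the TGFb receptor inhibitor A8301 at 500 nM (TGFb inhibitor). The labels do not say whether the ligand groups were ever given the inhibitor. Rose and fell below mean higher or lower than in the group compared. A rise with the ligands cannot be told apart from a fall with the inhibitor. TGFb1 and BMP4 were only given together, so their parts cannot be told apart either. Treatments lasted 72 h with renewal every 24 h. Each group held 2 libraries, and the labels do not say whether these came from separate cultures or animals, so p-values measure the spread between these libraries, which may be technical. The cultures were started from a suspension of the digested esophagus, which can hold cells other than epithelium.

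Collagens are secreted or membrane-bound proteins whose chains wind around each other in a helix through repeats rich in glycine. Fibrillar collagens (types I, II, III, V, XI, XXIV and XXVII) build the banded fibrils of connective tissue, and type IV collagen forms the sheet-like network of the basement membrane on which epithelial cells sit. FACITs (fibril-associated collagens with interrupted helices) decorate fibrils, while transmembrane collagens are anchored in the plasma membrane, as type XVII is in the hemidesmosomes that fix basal keratinocytes to the basement membrane. TGFb acts through SMAD proteins and is known as an inducer of fibrillar collagen genes in fibroblasts.

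Some collagen genes lie in pairs that start back to back. Col4a4 (chr1:82448423-82586849, minus strand) and Col4a3 (chr1:82586921-82722059, plus strand) are separated by 71 bp, in GENCODE vM21 on GRCm38. The interval between them is shown because both genes were among the collagens that differed most between treatments. Further stretches, each the 250 bp before the RefSeq start, are shown for genes with contrasting patterns, described further on. Col3a1 rose with the ligands and was lower with ibuprofen, Col5a3 rose without a call for ibuprofen, Col27a1 was higher with ibuprofen, and Col8a1 was lower with it. All are RefSeq sequence of GRCm38.p6, written 5′ to 3′ on the strand given, with the RefSeq start of Col27a1 inside the span that GENCODE gives, and capitals mark the SMAD-binding motif CAGAC or its complement GTCTG.
Col4a4 to Col4a3 (chr1:82586850-82586920, plus strand): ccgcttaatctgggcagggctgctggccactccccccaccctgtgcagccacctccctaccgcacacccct
Col3a1 (chr1:45311288-45311537, plus strand): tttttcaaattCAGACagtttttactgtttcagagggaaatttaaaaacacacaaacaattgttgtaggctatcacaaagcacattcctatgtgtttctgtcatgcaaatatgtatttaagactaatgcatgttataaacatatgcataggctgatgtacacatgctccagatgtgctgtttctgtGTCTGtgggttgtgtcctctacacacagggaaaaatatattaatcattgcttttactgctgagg
Col5a3 (chr9:20815068-20815317, minus strand): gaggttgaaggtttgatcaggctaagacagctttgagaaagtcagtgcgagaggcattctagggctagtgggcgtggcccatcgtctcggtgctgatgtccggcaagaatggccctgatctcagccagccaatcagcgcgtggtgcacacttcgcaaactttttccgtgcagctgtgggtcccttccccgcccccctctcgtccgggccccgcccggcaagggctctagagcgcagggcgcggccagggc
Col27a1 (chr4:63215162-63215411, plus strand): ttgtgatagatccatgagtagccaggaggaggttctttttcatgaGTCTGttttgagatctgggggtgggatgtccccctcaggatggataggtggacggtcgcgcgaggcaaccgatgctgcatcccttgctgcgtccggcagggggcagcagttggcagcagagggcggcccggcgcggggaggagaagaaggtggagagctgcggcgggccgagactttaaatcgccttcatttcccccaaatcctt
Col8a1 (chr16:57754738-57754987, minus strand): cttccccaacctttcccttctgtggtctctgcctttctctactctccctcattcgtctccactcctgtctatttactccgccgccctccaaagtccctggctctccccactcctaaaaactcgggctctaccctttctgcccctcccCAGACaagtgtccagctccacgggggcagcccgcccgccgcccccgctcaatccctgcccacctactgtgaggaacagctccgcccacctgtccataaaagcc
CAGAC was found, on either strand, 2 times before Col3a1, 1 time before Col27a1 and 1 time before Col8a1, and in neither the Col5a3 stretch nor the interval between Col4a4 and Col4a3. A RefSeq window was at hand for 35 of the 44 collagen genes, 27 of them tested as described further on. These 27 genes had 29 windows. CAGAC was present in 42.2% of all 32851 windows of this length and in 13 of these 29. The GC content was 69.0% between Col4a4 and Col4a3, 62.8% before Col5a3, 60.8% before Col8a1, 59.6% before Col27a1 and 35.2% before Col3a1, against a median of 52.4% over all windows. Other motifs were searched on both strands, of which GGCGCC and GGGCGG can overlap. The BMP-responsive GC element GGCGCC was in 4 of the 29 windows (9.59% of all windows) and the AP-1 motif TGANTCA in 1 (6.75%). The GC box GGGCGG was in 17 (32.7%), the TATA box TATAAA in 4 (12.4%) and the CCAAT box in 11 (33.8%). These matches describe the letters in the windows and no factor binding was measured.

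Transcripts were quantified by bulk RNA sequencing, and levels are CPM (read counts scaled to a common library total) as deposited. Reads counted in genes, as recovered from the deposited scaled values, numbered 6413873 to 7730582 per library. The number of reads sequenced is not given here. Of the 44 collagen genes, 33 reached 1 CPM in at least 2 libraries and were tested among 18241 genes. The 11 others were Col2a1 (fibrillar), Col9a1, Col9a2, Col14a1 and Col22a1 (FACIT), Col6a4, Col6a5 and Col6a6 (type VI), Col8a2 (network), Col13a1 (transmembrane) and Col28a1 (other). Their highest value in any library was 0.900 CPM, and Col9a1, Col6a4 and Col6a5 had no read at all. A gene could pass this filter through 1 treatment alone, so the counts and medians over tested members given below are descriptions. Epithelial markers were present in every library, with Krt5 at 1742 CPM or more and Cdh1 at 541 CPM or more.

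Collagen transcripts made up more of the RNA with the ligands than with the inhibitor. Summed over all 44 genes, they averaged 7260 ± 1339 CPM with TGFb1+BMP4, 0.726% of all counted reads, and 1764 ± 31.6 CPM with the TGFb inhibitor, 0.176% of all counted reads (SD, n = 2 each, as for every mean below). The size of the difference varied by class. Fibrillar transcripts summed to 2574 ± 731 CPM with TGFb1+BMP4 and 98.7 ± 14.9 CPM with the inhibitor, a ratio of 26.1. Type IV transcripts summed to 737 ± 124 CPM with TGFb1+BMP4 and 86.2 ± 17.2 CPM with the inhibitor, a ratio of 8.55. FACIT transcripts summed to 259 ± 38.9 CPM with TGFb1+BMP4 and 72.1 ± 5.51 CPM with the inhibitor, a ratio of 3.60, and transmembrane transcripts to 2277 ± 97.6 CPM with TGFb1+BMP4 and 1313 ± 79.9 CPM with the inhibitor, a ratio of 1.73. In each of these 4 classes both TGFb1+BMP4 libraries lay above both inhibitor libraries. No test was made on these sums or between classes. In bulk RNA, a change in the number of cells that express a gene and a change in RNA per cell cannot be told apart.

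**Figure D1:**
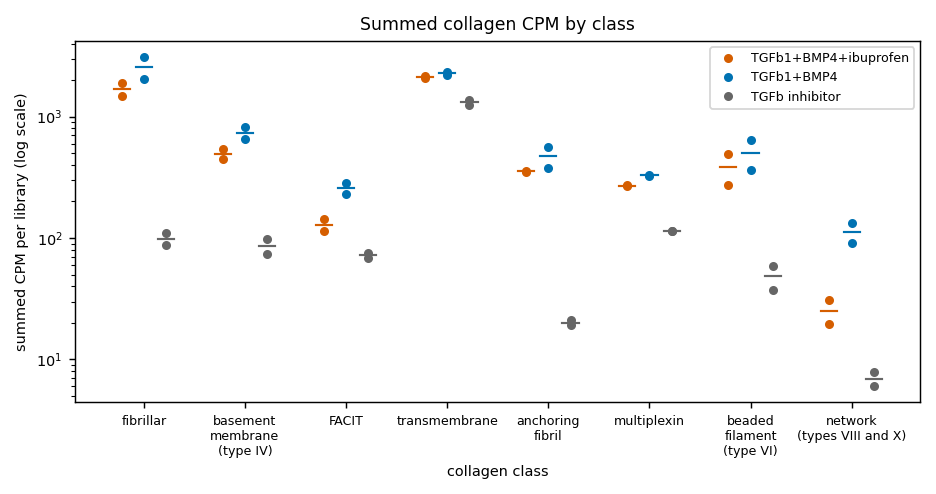
Summed CPM of the collagen genes of each class (log scale) in TGFb1+BMP4+ibuprofen, TGFb1+BMP4 and TGFb inhibitor libraries, with 1 point per library and a bar at the group mean. The distance between TGFb1+BMP4 and TGFb inhibitor is widest for fibrillar genes (2574 and 98.7 CPM) and narrowest for transmembrane genes (2277 and 1313 CPM).

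By gene, 27 of the 33 tested collagens rose and 2 fell with TGFb1+BMP4 relative to the TGFb inhibitor (limma on log2(CPM + 1), Benjamini-Hochberg adjusted p under 0.05). Over all genes tested, 40.3% were called in this comparison, 20.4% as higher and 19.9% as lower. The median log2 fold change was 2.83 over the tested collagens and -0.003 over all genes. Libraries of the 2 groups did not overlap for 31 of the 33 collagens, against 72.2% of all genes. The number of all genes called, 7351, was 4713 without TGFb inhibitor replicate 1 and 4781 without replicate 2. Fold changes on this scale understate the change of genes with low values.

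Most fibroblast markers other than collagens also rose. Of 10 markers, 9 were tested, and 8 of those rose and 1, Fbln1, fell with TGFb1+BMP4 relative to the inhibitor. Fbln1 had 10.3 and 13.3 CPM with TGFb1+BMP4 against 40.08 and 40.13 CPM with the inhibitor (-1.68 ± 0.17). Their summed level was 263 and 428 CPM in TGFb1+BMP4 libraries against 151 and 203 CPM in inhibitor libraries, of which the proteoglycan gene Dcn gave 145 and 244 CPM with TGFb1+BMP4 against 79.5 and 125 CPM with the inhibitor. Dpt, another dermal fibroblast marker, had no read in either inhibitor library. Tcf21 did not reach the filter, at 0 and 0.30 CPM with TGFb1+BMP4 and 0.55 and 1.85 CPM with the inhibitor. Muscle markers summed to 329 and 437 CPM with TGFb1+BMP4 and 141 and 206 CPM with the inhibitor, almost all of it from Des and Acta1 (2 of 3 tested rose), whereas Actg2 had no read and Myh11 stayed at or under 0.450 CPM in every library. Immune markers summed to 23.4 and 51.1 CPM with TGFb1+BMP4 and 52.8 and 61.7 CPM with the inhibitor (of 3 tested, Itgam rose and Cd68 fell), with Ptprc at or under 0.50 CPM throughout. Endothelial markers summed to 6.25 and 10.7 CPM with TGFb1+BMP4 and 4.90 and 3.85 CPM with the inhibitor (of 3 tested, Tek rose). Epithelial markers summed to 18367 and 14813 CPM with TGFb1+BMP4 and 18484 and 16040 CPM with the inhibitor, with Krt5, Krt14 and Epcam higher and Trp63, Sox2, Krt13 and Krt4 lower with TGFb1+BMP4, and Cdh1 not called. The part of any of these cells in the collagen results was not tested.

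Among fibrillar collagens, 9 of the 10 tested genes rose with TGFb1+BMP4 and none fell, with a median log2 fold change of 3.71. Col1a1 (chr11:94936224-94953042, plus strand), the main chain of type I collagen, had 609 and 761 CPM in TGFb1+BMP4+ibuprofen libraries, 885 and 1289 CPM in TGFb1+BMP4 libraries, and 18.5 and 18.2 CPM in TGFb inhibitor libraries. It rose by 5.79 ± 0.16 on the log2 scale with TGFb1+BMP4 over the inhibitor (± moderated SE from limma, here and below; adjusted p = 3.03e-07). Its partner Col1a2 (chr6:4504814-4541544) had 509.8 and 667 CPM with TGFb1+BMP4+ibuprofen, 632 and 952 CPM with TGFb1+BMP4, and 33.0 and 40.0 CPM with the inhibitor, and rose by 4.39 ± 0.19 (limma adjusted p = 2.67e-06). For both chains every ligand library lay above every inhibitor library.

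Col3a1, which encodes type III collagen of distensible tissues, had 56.3 and 108 CPM with TGFb1+BMP4+ibuprofen, 142 and 276 CPM with TGFb1+BMP4, and 8.79 and 14.1 CPM with the inhibitor. The increase with TGFb1+BMP4 over the inhibitor was 4.04 ± 0.36. The second library of each group was the higher one. Type V chains, which start fibrils and limit their width, rose too. Col5a1 had 94.7 and 117 CPM with TGFb1+BMP4+ibuprofen, 123 and 197 CPM with TGFb1+BMP4, and 11.2 and 17.7 CPM with the inhibitor (3.38 ± 0.25). Col5a2, which lies 24614 bp from Col3a1 on chromosome 1, had 111 and 152 CPM with TGFb1+BMP4+ibuprofen, 180.1 and 273 CPM with TGFb1+BMP4, and 9.59 and 11.9 CPM with the inhibitor (4.25 ± 0.21).

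Col5a3 (chr9:20770050-20815067, minus strand), another type V chain, was near absent with the inhibitor. It had 61.5 and 63.0 CPM with TGFb1+BMP4+ibuprofen, 68.6 and 65.5 CPM with TGFb1+BMP4, and 0.450 and 0.550 CPM, or 7 reads in all, with the inhibitor. It rose by 5.49 ± 0.14 with TGFb1+BMP4 over the inhibitor, and its ratio of mean CPM was 134, against 59.2 for Col1a1. Col11a1, a chain of the minor fibrillar type XI of cartilage, had 2.20 and 1.10 CPM with TGFb1+BMP4+ibuprofen, 8.74 and 15.6 CPM with TGFb1+BMP4, and 0.150 and 0.30 CPM with the inhibitor. The 169 reads with TGFb1+BMP4 against 3 with the inhibitor give a depth-scaled ratio of 61.0, with an exact 95% interval of 20.5 to 299 that covers counting error only. Col27a1, a fibrillar chain with a short helix, had 33.7 and 34.8 CPM with TGFb1+BMP4+ibuprofen, 14.2 and 16.7 CPM with TGFb1+BMP4, and 1.95 and 2.35 CPM with the inhibitor (2.38 ± 0.17 for TGFb1+BMP4 over the inhibitor). The related Col24a1 also rose (1.17 ± 0.23, adjusted p = 0.00414), at a mean of 2.32 ± 0.247 CPM with TGFb1+BMP4 and 0.475 ± 0.106 CPM with the inhibitor. Col11a2 was the 1 tested fibrillar gene not called, at 2.12 ± 0.742 CPM with TGFb1+BMP4 and 3.30 ± 0.212 CPM with the inhibitor (limma adjusted p = 0.163).

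**Figure D2:**
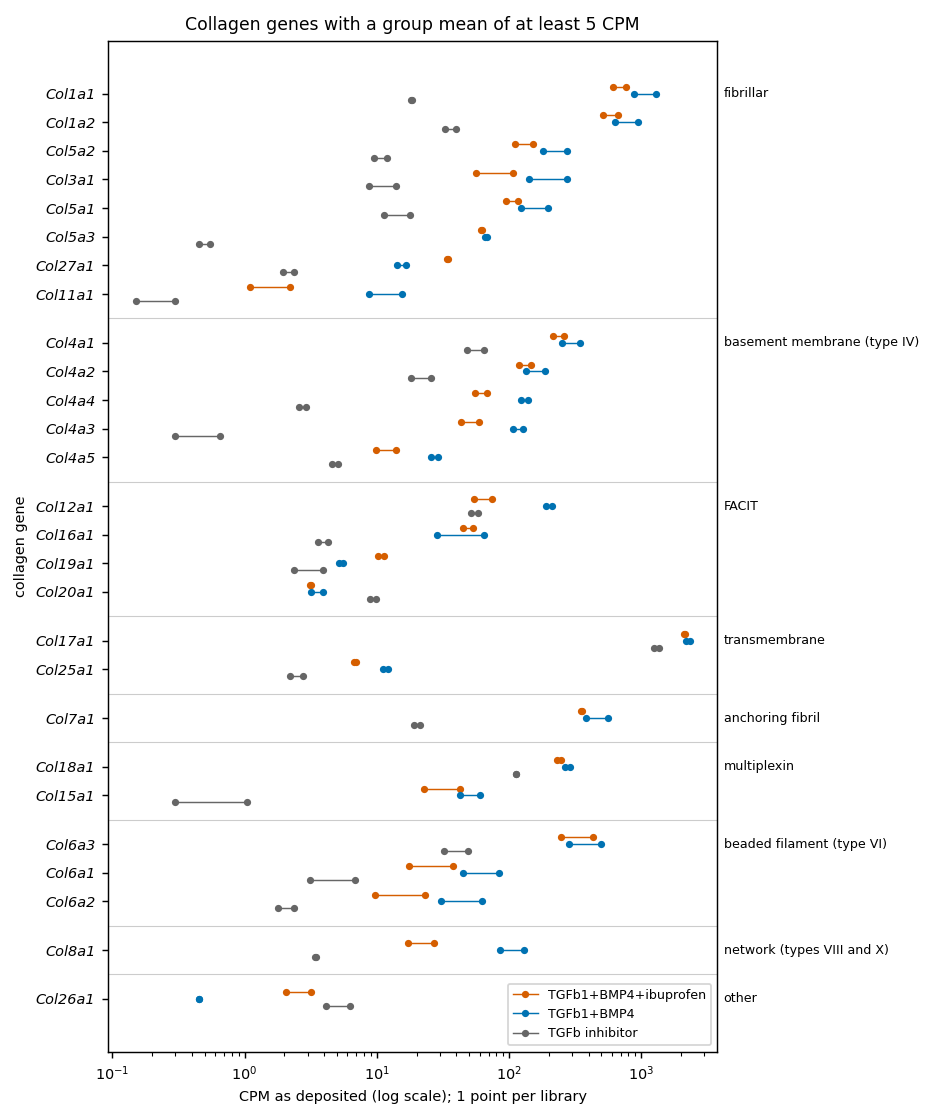
Deposited CPM (log scale) of the 27 collagen genes with a group mean of at least 5 CPM, sorted by class, with 1 point per library and a line joining the 2 libraries of a group. Inhibitor points lie to the left of both ligand groups for most genes, by far for Col5a3 and Col4a3, and to the right for Col20a1 and Col26a1.

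All 6 type IV genes rose with TGFb1+BMP4, with a median log2 fold change of 2.61 and a range of 1.36 to 6.32. The lower end of this range is Col4a6, which passed the filter only through TGFb1+BMP4, where it was highest. Its place in this count is therefore descriptive. Col4a1 and Col4a2 encode the chains found in nearly every basement membrane. Col4a1 (chr8:11198423-11312826, minus strand) had 214 and 261 CPM with TGFb1+BMP4+ibuprofen, 254 and 344 CPM with TGFb1+BMP4, and 48.2 and 64.3 CPM with the inhibitor, and rose by 2.40 ± 0.18. Col4a2 (chr8:11312805-11449287, plus strand) had 120.0 and 147 CPM with TGFb1+BMP4+ibuprofen, 134 and 186 CPM with TGFb1+BMP4, and 18.1 and 25.5 CPM with the inhibitor, and rose by 2.83 ± 0.19. This pair of genes shares 22 bp at their opposed starts, where reads cannot be assigned without strand, a setting the sources used here do not give.

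Col4a3 and Col4a4, whose chains join Col4a5 in the mature glomerular basement membrane of the kidney, had larger log2 fold changes than the first pair, a difference that was not tested. Col4a3 had 43.3 and 59.7 CPM with TGFb1+BMP4+ibuprofen, 107 and 127 CPM with TGFb1+BMP4, and 0.30 and 0.650 CPM with the inhibitor. It rose by 6.32 ± 0.20 with TGFb1+BMP4 over the inhibitor, where 7 reads stood behind it, and 563 bp (5.65%) of its exons overlap the opposite-strand gene C430014B12Rik. Col4a4 had 55 and 68.1 CPM with TGFb1+BMP4+ibuprofen, 124 and 138 CPM with TGFb1+BMP4, and 2.90 and 2.60 CPM with the inhibitor (5.14 ± 0.14, adjusted p = 2.97e-07). Col4a5 (chrX:141475385-141689234) had 13.9 and 9.84 CPM with TGFb1+BMP4+ibuprofen, 29.0 and 25.6 CPM with TGFb1+BMP4, and 4.55 and 5.05 CPM with the inhibitor (2.29 ± 0.20). Its neighbour Col4a6, which starts 1309 bp away in the opposite direction, had 0.550 ± 0.141 CPM with TGFb1+BMP4+ibuprofen, 1.97 ± 0.530 CPM with TGFb1+BMP4 and 0.150 ± 0.212 CPM with the inhibitor. Its 27 reads with TGFb1+BMP4 against 2 with the inhibitor give a ratio of 14.6 (exact 95% interval 3.68 to 127, counting error only).

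FACIT genes showed no shared pattern. Of 9 genes 5 were tested, and with TGFb1+BMP4 3 of these rose and 1 fell, with a median log2 fold change of 0.96. Col12a1 (chr9:79598991-79718831, minus strand), which binds type I fibrils, had 54.2 and 74.0 CPM with TGFb1+BMP4+ibuprofen, 192 and 210.5 CPM with TGFb1+BMP4, and 51.3 and 58.0 CPM with the inhibitor, and rose by 1.87 ± 0.15 with TGFb1+BMP4 over the inhibitor. Only the TGFb1+BMP4 libraries stood apart for Col12a1, since the other 2 groups overlapped. Col16a1, a FACIT found with fibrils and near basement membranes, had 44.8 and 53.2 CPM with TGFb1+BMP4+ibuprofen, 28.5 and 64.3 CPM with TGFb1+BMP4, and 3.60 and 4.30 CPM with the inhibitor (3.16 ± 0.30). The 2 TGFb1+BMP4 libraries of Col16a1 enclosed the ibuprofen ones.

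Col19a1, a rare FACIT of muscle and nervous tissue, had 10.3 and 11.4 CPM with TGFb1+BMP4+ibuprofen, 5.20 and 5.55 CPM with TGFb1+BMP4, and 2.35 and 3.90 CPM with the inhibitor. Its difference of 0.66 ± 0.24 for TGFb1+BMP4 over the inhibitor was not called (limma adjusted p = 0.0568; with replicate number as a block, adjusted p = 0.0381; without TGFb inhibitor replicate 2, 0.94 with adjusted p = 0.0338). Col20a1 had 3.20 and 3.15 CPM with TGFb1+BMP4+ibuprofen, 3.20 and 3.95 CPM with TGFb1+BMP4, and 9.89 and 8.94 CPM with the inhibitor, and fell by 1.18 ± 0.21 with TGFb1+BMP4 over the inhibitor (adjusted p = 0.00243). Col9a3, a chain of the cartilage FACIT type IX, rose on few reads, 27 with TGFb1+BMP4 and 7 with the inhibitor (0.96 ± 0.27, limma adjusted p = 0.022). This call was lost without TGFb inhibitor replicate 2 (0.78, adjusted p = 0.142), without TGFb1+BMP4 replicate 1 (0.70, adjusted p = 0.135) and with no filter on low genes (adjusted p = 0.0504).

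Per length, nearly all transmembrane collagen transcripts came from 1 gene. Col17a1 (chr19:47646344-47692094, minus strand), the hemidesmosome collagen of basal keratinocytes, had 2135 and 2092 CPM with TGFb1+BMP4+ibuprofen, 2194 and 2329 CPM with TGFb1+BMP4, and 1363 and 1249 CPM with the inhibitor. It rose by 0.80 ± 0.10 with TGFb1+BMP4 over the inhibitor (limma adjusted p = 0.000497), the smallest change among the 27 collagens called higher. Col25a1, known from neurons and developing muscle, had 6.95 and 6.75 CPM with TGFb1+BMP4+ibuprofen, 11.2 and 12.2 CPM with TGFb1+BMP4, and 2.75 and 2.20 CPM with the inhibitor and rose by 1.87 ± 0.20. Col23a1 was not called, at 3.07 ± 1.45 CPM with TGFb1+BMP4 and 4.65 ± 1.48 CPM with the inhibitor (adjusted p = 0.239).

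The remaining classes held some of the larger changes. Col7a1 (chr9:108953586-108984875), whose protein forms the anchoring fibrils below the epithelial basement membrane, had 358 and 349.8 CPM with TGFb1+BMP4+ibuprofen, 381 and 559.6 CPM with TGFb1+BMP4, and 21.1 and 19.1 CPM with the inhibitor, and rose by 4.46 ± 0.15. The 2 multiplexins, which are basement membrane collagens with interrupted helices, both rose. Col15a1 had 22.7 and 42.9 CPM with TGFb1+BMP4+ibuprofen, 42.3 and 60.3 CPM with TGFb1+BMP4, and 0.30 and 1.05 CPM with the inhibitor (4.97 ± 0.33), and Col18a1, the source of endostatin, had 246 and 230.3 CPM with TGFb1+BMP4+ibuprofen, 290.5 and 263 CPM with TGFb1+BMP4, and 114 and 112 CPM with the inhibitor (1.29 ± 0.09). Col18a1 was read at 112 CPM or more in the inhibitor libraries, and Col15a1 at 1.05 CPM or less.

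Type VI collagen, which forms beaded microfilaments, is built from Col6a1, Col6a2 and a long chain such as Col6a3. Col6a3 had 249 and 431 CPM with TGFb1+BMP4+ibuprofen, 286 and 496 CPM with TGFb1+BMP4, and 32.2 and 49.3 CPM with the inhibitor (3.22 ± 0.32). Col6a1 had 17.6 and 37.4 CPM with TGFb1+BMP4+ibuprofen, 45.1 and 84.1 CPM with TGFb1+BMP4, and 3.15 and 6.90 CPM with the inhibitor (3.45 ± 0.42), and Col6a2 had 9.70 and 23.2 CPM with TGFb1+BMP4+ibuprofen, 30.7 and 62.0 CPM with TGFb1+BMP4, and 1.80 and 2.35 CPM with the inhibitor (3.87 ± 0.41). All 3 were higher in the second library of every group. The network collagen Col8a1 (chr16:57624258-57754737, minus strand), found around vessels and in Descemet's membrane of the eye, had 17.2 and 27.3 CPM with TGFb1+BMP4+ibuprofen, 85.7 and 129.6 CPM with TGFb1+BMP4, and 3.45 and 3.40 CPM with the inhibitor (4.59 ± 0.24). Its relative Col10a1, the collagen of hypertrophic cartilage, was not called, at 3.92 ± 0.389 CPM with TGFb1+BMP4 and 3.37 ± 1.24 CPM with the inhibitor (adjusted p = 0.574). Col26a1 went the other way. It had 3.20 and 2.05 CPM with TGFb1+BMP4+ibuprofen, 0.450 and 0.450 CPM with TGFb1+BMP4, and 6.30 and 4.15 CPM with the inhibitor, a fall of 2.06 ± 0.27 with TGFb1+BMP4 (adjusted p = 0.000551) that rests on 6 reads in that group.

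Per length of the longest coding transcript, the make-up of the collagen transcripts differed between treatments. Transmembrane collagens made up 42.6% ± 4.34 of collagen CPM per kb with TGFb1+BMP4+ibuprofen, 35.2% ± 4.82 with TGFb1+BMP4 and 77.1% ± 2.68 with the inhibitor. Fibrillar collagens made up 32.1% ± 2.96 with TGFb1+BMP4+ibuprofen, 37.0% ± 3.98 with TGFb1+BMP4 and 5.41% ± 0.921 with the inhibitor. Type IV genes held 7.88% ± 0.412 with TGFb1+BMP4+ibuprofen, 8.63% ± 0.0293 with TGFb1+BMP4 and 4.27% ± 0.973 with the inhibitor. FACITs held 2.07% ± 0.0902 with TGFb1+BMP4+ibuprofen, 2.48% ± 0.0674 with TGFb1+BMP4 and 2.75% ± 0.256 with the inhibitor. The inhibitor libraries differed from the 4 ligand libraries in each of these shares without overlap, and the 2 ligand groups overlapped in the fibrillar share. These shares sum to a whole, so that a larger share of 1 class is a smaller share of the others. Col17a1 ranked first per length in every group, at 378 CPM per kb with TGFb1+BMP4+ibuprofen, 405 with TGFb1+BMP4 and 234 with the inhibitor. Col1a1 and Col1a2 came next with TGFb1+BMP4+ibuprofen (116 and 110 CPM per kb) and with TGFb1+BMP4 (183 and 148 CPM per kb). With the inhibitor Col18a1, Col4a1 and Col1a2 followed Col17a1, at 20.2, 8.50 and 6.82 CPM per kb, and Col1a1 had rank 8 at 3.1 CPM per kb.

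**Figure D3:**
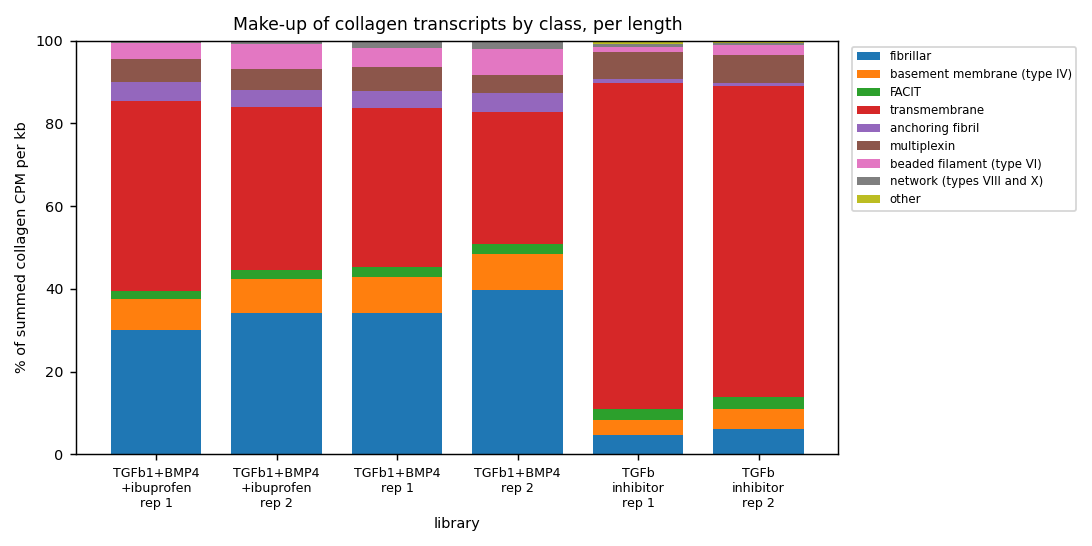
Share of each collagen class in the summed collagen CPM per kb, as 1 stacked bar per library for TGFb1+BMP4+ibuprofen, TGFb1+BMP4 and TGFb inhibitor. Transmembrane genes, nearly all of it Col17a1, fill 75.2% to 79.0% of the inhibitor bars and 31.8% to 45.7% of the ligand bars, where fibrillar genes fill 30.02% to 39.78%.

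Ratios between chains within a library do not depend on how libraries are scaled. The ratio of Col1a1 to Col1a2, whose proteins join as 2 to 1 in type I collagen, was 1.08 and 1.03 per kb with TGFb1+BMP4+ibuprofen, 1.26 and 1.22 with TGFb1+BMP4, and 0.506 and 0.411 with the inhibitor. The groups did not overlap, and the level of the ratio depends on the length used (by union of exons, 2.26 and 2.16 with TGFb1+BMP4+ibuprofen, 2.65 and 2.56 with TGFb1+BMP4, and 1.06 and 0.864 with the inhibitor). Col4a1 to Col4a2, which also join as 2 to 1, was 1.74 and 1.73 with TGFb1+BMP4+ibuprofen, 1.84 and 1.80 with TGFb1+BMP4, and 2.60 and 2.46 with the inhibitor. Col4a3 and Col4a4 stood near 1 to 1 in the ligand groups, at 0.931 and 1.04 with TGFb1+BMP4+ibuprofen and 1.02 and 1.09 with TGFb1+BMP4, against 0.122 and 0.296 with the inhibitor. The inhibitor ratios rest on 2 and 5 reads of Col4a3 against 21 and 20 of Col4a4 and are imprecise. Relative to Col4a1, Col4a4 stood at 0.168 and 0.171 with TGFb1+BMP4+ibuprofen, 0.319 and 0.263 with TGFb1+BMP4, and 0.0394 and 0.0265 with the inhibitor. Col3a1 relative to Col1a1 was lower in the ligand groups, at 0.0985 and 0.151 with TGFb1+BMP4+ibuprofen and 0.171 and 0.228 with TGFb1+BMP4, against 0.507 and 0.823 with the inhibitor. Col6a3 to Col6a1 was 5.72 and 4.68 with TGFb1+BMP4+ibuprofen, above the 2.57 and 2.39 with TGFb1+BMP4 and the 4.15 and 2.90 with the inhibitor. Col5a3 to Col5a1 was 0.892 and 0.737 with TGFb1+BMP4+ibuprofen, 0.765 and 0.455 with TGFb1+BMP4, and 0.0550 and 0.0426 with the inhibitor, the last on 3 and 4 reads of Col5a3.

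**Figure D4:**
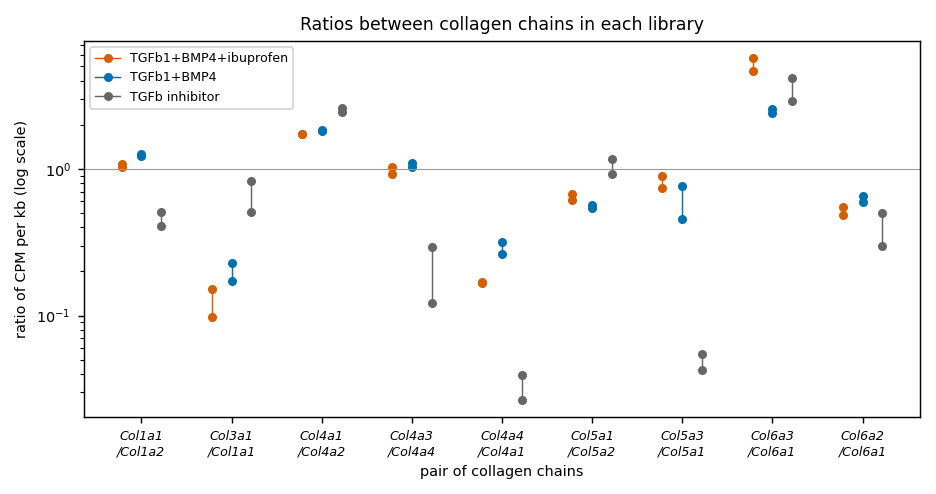
Ratio of CPM per kb (log scale) between pairs of collagen genes in each library of TGFb1+BMP4+ibuprofen, TGFb1+BMP4 and TGFb inhibitor, with a line joining the 2 libraries of a group and a grey line at 1. Ratios of Col1a1 to Col1a2 are 1.03 to 1.26 in ligand libraries and 0.411 and 0.506 in inhibitor libraries, and Col6a3 to Col6a1 is highest with ibuprofen.

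Ibuprofen, an inhibitor of the prostaglandin-forming cyclooxygenases, was added to the ligands in the TGFb1+BMP4+ibuprofen group, and its comparison with TGFb1+BMP4 asks how the ligand-treated culture differs when it is present. Collagen transcripts averaged 5482 ± 518 CPM in sum with TGFb1+BMP4+ibuprofen and 7260 ± 1339 CPM with TGFb1+BMP4. Of the 33 tested genes, 11 were lower and 3 higher (limma, adjusted p under 0.05), where 19.8% of all genes were called, 10.7% as higher and 9.02% as lower. The median log2 fold change was -0.49 over the tested collagens, 28 of them negative, and -0.008 over all genes. Libraries did not overlap for 25 of the 33, against 58.8% of all genes. The count of 14 collagens called was 9 without TGFb1+BMP4 replicate 2 and 7 without TGFb1+BMP4+ibuprofen replicate 1, and that of all genes called, 3603, was 2261 and 1643. Fibroblast markers summed to 352 and 389 CPM with TGFb1+BMP4+ibuprofen and 263 and 428 CPM with TGFb1+BMP4, an overlap, with Pdgfra higher and Pdgfrb and Thy1 lower. Muscle markers (313 and 412 CPM with TGFb1+BMP4+ibuprofen against 329 and 437 CPM with TGFb1+BMP4) and endothelial markers (8.70 and 6.35 CPM with TGFb1+BMP4+ibuprofen against 6.25 and 10.7 CPM with TGFb1+BMP4) had no call. Immune markers summed to 37.0 and 61.4 CPM with TGFb1+BMP4+ibuprofen and 23.4 and 51.1 CPM with TGFb1+BMP4, with Cd68 higher and Itgam lower. Epithelial markers summed to 12137 and 12912 CPM with TGFb1+BMP4+ibuprofen and 18367 and 14813 CPM with TGFb1+BMP4, with Epcam higher and Krt13 and Krt4 lower. Their part in the collagen values was not tested.

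**Figure D5:**
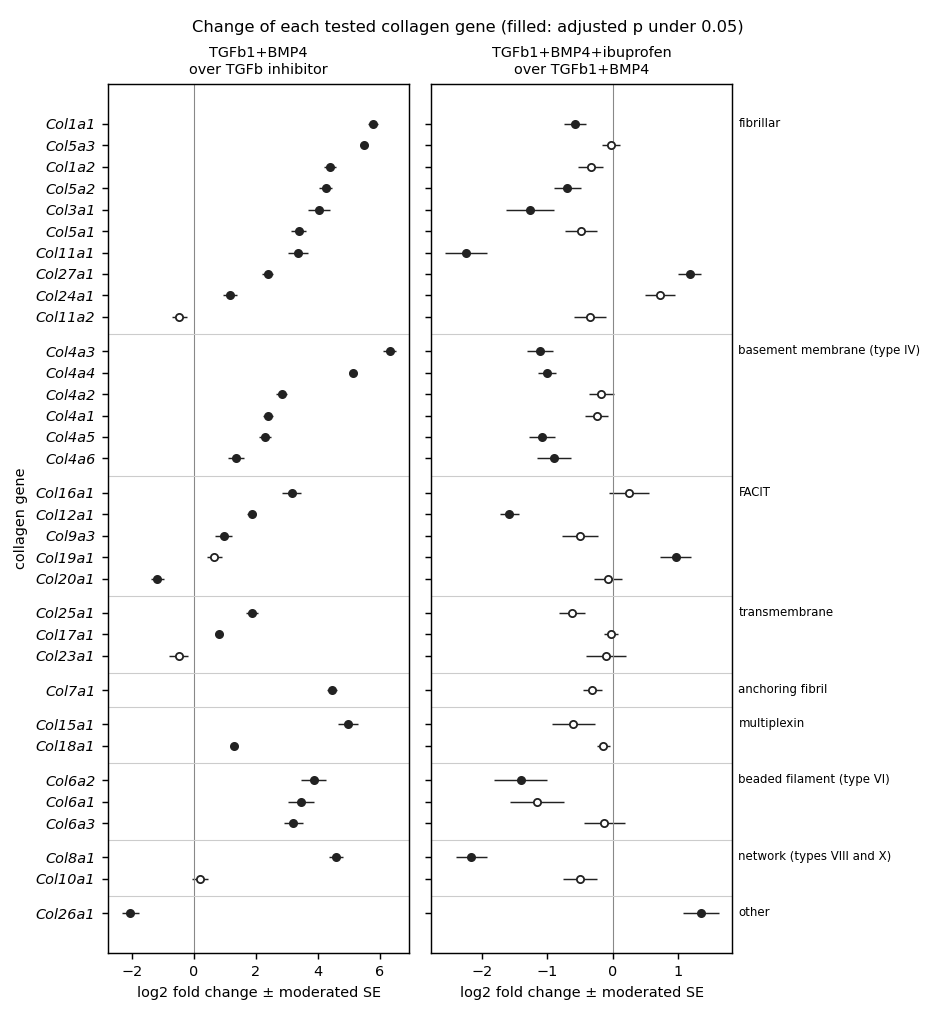
Log2 fold change ± moderated SE of the 33 tested collagen genes, TGFb1+BMP4 over TGFb inhibitor on the left and TGFb1+BMP4+ibuprofen over TGFb1+BMP4 on the right, sorted by class, with filled points for adjusted p under 0.05. The axes differ in scale. The left panel runs up to 6.32 (Col4a3), and the right panel lies mostly left of 0, down to -2.25 (Col11a1).

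Counts of genes called with ibuprofen over TGFb1+BMP4 are given by class, beside 10.7% of all genes called higher and 9.02% lower. No test was made between classes, and each holds few genes. Type IV had 4 of 6 genes lower and none higher, with a median of -0.95. Fibrillar genes had 4 of 10 lower and 1 higher, with a median of -0.42, and FACITs 1 of 5 lower and 1 higher, with a median of -0.07. None of the 3 tested transmembrane genes was called, with a median of -0.11. As a share of the TGFb1+BMP4 mean, the summed level with TGFb1+BMP4+ibuprofen stood at a ratio of 0.674 for type IV, 0.659 for fibrillar, 0.496 for FACIT and 0.933 for transmembrane genes. In the FACIT class Col12a1 went from 201 CPM with TGFb1+BMP4 to 64.1 CPM with TGFb1+BMP4+ibuprofen. The FACIT sum went from 259 to 129 CPM. Log2 fold changes were negative for 3 and positive for 2 of the 5 tested FACITs, so this ratio follows Col12a1 and does not describe the class. The network class, in which Col8a1 changed, had the lowest ratio at 0.224.

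In type IV the calls fell on the chains other than Col4a1 and Col4a2. Col4a3 changed by -1.11 ± 0.20 on the log2 scale (limma adjusted p = 0.00554), at 43.9% of its TGFb1+BMP4 mean, and Col4a4 by -1.01 ± 0.14 (adjusted p = 0.00172), at 47.0%. Col4a5 changed by -1.09 ± 0.20 (adjusted p = 0.00683) and Col4a6 by -0.90 ± 0.26 (adjusted p = 0.0413), the last on 7 reads with TGFb1+BMP4+ibuprofen and 27 with TGFb1+BMP4. The Col4a6 call held in none of the fits that left out a library, so that type IV then had 3 genes lower. It was lost without either inhibitor library (adjusted p = 0.0627 and 0.0619) and without TGFb1+BMP4+ibuprofen replicate 1 (0.174) or 2 (0.0893), and without either TGFb1+BMP4 library Col4a6 did not reach the filter. For Col4a1 (-0.25 ± 0.18, adjusted p = 0.37) and Col4a2 (-0.18 ± 0.19, adjusted p = 0.575) the libraries of both groups overlapped. Whether the first 4 genes differ from these 2 in their response was not tested.

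Among fibrillar genes the largest ibuprofen change was in Col11a1, at 13.5% of its TGFb1+BMP4 mean (-2.25 ± 0.32, limma adjusted p = 0.00208), on 22 reads with TGFb1+BMP4+ibuprofen and 169 with TGFb1+BMP4. Col27a1 was higher by 1.17 ± 0.17 (adjusted p = 0.00223), the 1 fibrillar gene called in that direction. Col24a1 had 4.65 and 3.90 CPM with TGFb1+BMP4+ibuprofen and 2.15 and 2.5 CPM with TGFb1+BMP4, without a call (0.72 ± 0.23, adjusted p = 0.0597), but passed with a pseudocount of 4 (adjusted p = 0.0318). Col5a3 was nearly level, at 92.8% of the TGFb1+BMP4 mean (-0.03 ± 0.14, adjusted p = 0.891).

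The major fibrillar chains were close to the threshold. Col1a1 changed by -0.58 ± 0.16 (limma adjusted p = 0.0407), Col3a1 by -1.26 ± 0.36 (adjusted p = 0.0424) and Col5a2 by -0.69 ± 0.21 (adjusted p = 0.0483), and in all 3 genes both TGFb1+BMP4+ibuprofen libraries lay below both TGFb1+BMP4 libraries. None of these 3 calls held without TGFb1+BMP4 replicate 2, where the changes were -0.35 for Col1a1 (adjusted p = 0.16), -0.83 for Col3a1 (0.188) and -0.44 for Col5a2 (0.214). Nor did they hold without TGFb1+BMP4+ibuprofen replicate 1, where the changes were -0.41 for Col1a1 (adjusted p = 0.22), -0.79 for Col3a1 (0.238) and -0.46 for Col5a2 (0.26). Without either of the inhibitor libraries, which belong to neither group but enter the scaling factors and the estimate of spread, Col1a1 (adjusted p = 0.0634 and 0.0621) and Col5a2 (adjusted p = 0.0556 and 0.0546) were not called either. Col1a2 (-0.34 ± 0.19, adjusted p = 0.262) and Col5a1 (-0.49 ± 0.25, adjusted p = 0.203) were not called, but passed with replicate number as a block (limma adjusted p = 0.0284 and 0.0121).

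Col12a1 had the smallest adjusted p of all collagens with ibuprofen, at 31.9% of its TGFb1+BMP4 mean (-1.58 ± 0.15, limma adjusted p = 0.000334). Col19a1 was higher, at 202% of that mean (0.96 ± 0.24, adjusted p = 0.0249), a call that was lost when any 1 of the 4 ligand libraries was left out (changes of 0.89 to 1.03, adjusted p = 0.0778 to 0.106). Col16a1 (0.25 ± 0.30) and Col20a1 (-0.07 ± 0.21) were not called, and without TGFb1+BMP4 replicate 2 Col16a1 was (0.78, adjusted p = 0.0402). Col17a1 stood at 93.4% of its TGFb1+BMP4 mean (-0.02 ± 0.10, adjusted p = 0.895), although both libraries lay below both TGFb1+BMP4 libraries. Col25a1, at 58.5%, was just short of the threshold (-0.63 ± 0.20, adjusted p = 0.0585) and was called with no scaling factors, with a pseudocount of 4 and with a filter at 5 CPM (limma adjusted p = 0.0464, 0.037 and 0.0478).

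Of the other classes, Col8a1 was at 20.7% of its TGFb1+BMP4 mean (-2.16 ± 0.24, limma adjusted p = 0.000668). Col6a2 was lower (-1.40 ± 0.41, adjusted p = 0.0427), a call lost without TGFb1+BMP4 replicate 2 (-0.95, adjusted p = 0.201), without TGFb1+BMP4+ibuprofen replicate 1 (-0.81, adjusted p = 0.224) and without either inhibitor library (adjusted p = 0.0585 and 0.0576). Col6a1 was not called (-1.16 ± 0.42, adjusted p = 0.0889) but passed with the replicate block (adjusted p = 0.000416) and without TGFb1+BMP4+ibuprofen replicate 2 (-1.69, adjusted p = 0.0452). Col6a3 changed by -0.13 ± 0.32 (adjusted p = 0.818) with overlapping libraries. Col7a1 (-0.31 ± 0.15, adjusted p = 0.184) was called without TGFb1+BMP4 replicate 1 (-0.56, adjusted p = 0.0122), Col15a1 (-0.61 ± 0.33, adjusted p = 0.238) with the replicate block (limma adjusted p = 0.0323), and Col18a1 (-0.14 ± 0.09, adjusted p = 0.328) in neither setting. Col26a1 was higher with ibuprofen (1.35 ± 0.27, adjusted p = 0.0105), on 35 reads with TGFb1+BMP4+ibuprofen and 6 with TGFb1+BMP4, and lost its call without TGFb1+BMP4+ibuprofen replicate 1 (1.12, adjusted p = 0.0764).

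Set against the TGFb inhibitor, TGFb1+BMP4+ibuprofen left most collagens well above the inhibitor level. Of the 33 genes, 25 were higher and 2 lower (limma, adjusted p under 0.05), where 40.7% of all genes were called, 20.8% as higher and 19.9% as lower, and the median was 2.30. This comparison and the first share the inhibitor libraries, so their values are given side by side and not correlated. Fibrillar transcripts summed to 1697 ± 299.7 CPM with TGFb1+BMP4+ibuprofen and 98.7 ± 14.9 CPM with the inhibitor, a ratio of 17.2, and the ratio was 5.76 for type IV, 1.79 for FACIT and 1.62 for transmembrane transcripts. The TGFb1+BMP4+ibuprofen sums of these classes were 497 ± 70.6 CPM for type IV, 129 ± 20.4 CPM for FACIT and 2123 ± 30.2 CPM for transmembrane genes. Col5a3 (5.46 ± 0.14), Col1a1 (5.22 ± 0.16) and Col4a3 (5.20 ± 0.20) had the largest log2 fold changes on the log2(CPM + 1) scale. By the ratio of mean CPM the order was Col5a3 (124.5), Col4a3 (108.5), Col15a1 (48.6) and Col1a1 (37.3). Col12a1, at 64.1 ± 14.1 CPM with TGFb1+BMP4+ibuprofen and 54.6 ± 4.70 CPM with the inhibitor, overlapped and was not called (0.29 ± 0.15, adjusted p = 0.152, but 0.52 with adjusted p = 0.0182 without TGFb1+BMP4+ibuprofen replicate 1). Col20a1 (-1.25 ± 0.21) and Col11a2 (-0.82 ± 0.25, adjusted p = 0.0283) were lower, the Col11a2 call being lost when any 1 of the 4 libraries compared was left out (adjusted p = 0.0712 to 0.13). Col26a1, at 2.62 ± 0.812 CPM with TGFb1+BMP4+ibuprofen and 5.22 ± 1.52 CPM with the inhibitor, was not called (-0.72 ± 0.27, adjusted p = 0.0664), but passed with the replicate block (limma adjusted p = 0.043) and with a pseudocount of 4 (adjusted p = 0.0451). Col11a1 was called higher (1.12 ± 0.32, adjusted p = 0.0226) on 22 reads against 3, a ratio of 8.27 (exact 95% interval 2.48 to 43.2), and not without either inhibitor library (1.02 and 1.2, adjusted p = 0.111 and 0.0681) or without TGFb1+BMP4+ibuprofen replicate 1 (0.82, adjusted p = 0.133). Fibroblast markers were higher in 7 and lower in 1 of 9 tested, and summed to 352 and 389 CPM with TGFb1+BMP4+ibuprofen against 151 and 203 CPM with the inhibitor. Of the muscle, endothelial, immune and epithelial markers, Des, Acta1, Tek, Lyz2, Krt5, Krt14 and Epcam were higher and Cd68, Trp63, Sox2, Krt13 and Krt4 lower, and their part was not tested.

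Genes that build collagen around the chains were followed as lists. Their counts stand beside those over all genes tested, where 20.4% were called higher and 19.9% lower with TGFb1+BMP4 over the inhibitor, 10.7% higher and 9.02% lower with ibuprofen over TGFb1+BMP4, and 20.8% higher and 19.9% lower with TGFb1+BMP4+ibuprofen over the inhibitor. Of 15 genes for prolyl and lysyl modification, 14 were tested. With TGFb1+BMP4 over the inhibitor 8 rose and 1 fell, with a median of 0.59, and 5 rose without TGFb inhibitor replicate 1 or without TGFb1+BMP4 replicate 2. P4ha3, a prolyl 4-hydroxylase subunit, had 11.9 and 17.4 CPM with TGFb1+BMP4 and no read with the inhibitor, at least 73.4-fold higher against a floor of 3 reads over the group. The prolyl 3-hydroxylase gene P3h1 (1.85 ± 0.14), its family member P3h4 (1.40 ± 0.12) and the lysyl hydroxylase gene Plod2 (1.14 ± 0.13) rose, and P3h2 fell by 0.88 ± 0.15. The disulfide isomerase gene P4hb (325 and 317 CPM with TGFb1+BMP4, 348 and 385 CPM with the inhibitor) and the main catalytic subunit gene P4ha1 were not called. With ibuprofen over TGFb1+BMP4, 2 were higher, P4ha2 (0.92 ± 0.18) and P3h1 (0.50 ± 0.14), and none lower. That is 2 of 14, near the share over all genes, and P3h1 was lost whichever library was left out (limma adjusted p = 0.0679 to 0.201) and P4ha2 without TGFb1+BMP4+ibuprofen replicate 1 (0.77, adjusted p = 0.0797). With TGFb1+BMP4+ibuprofen over the inhibitor 8 were higher and 1 lower.

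Of 10 genes for collagen folding and export, all tested, 6 rose and 1 fell with TGFb1+BMP4 over the inhibitor, with a median of 0.64. Serpinh1, the collagen chaperone HSP47, had 195 and 204 CPM with TGFb1+BMP4+ibuprofen, 172 and 203 CPM with TGFb1+BMP4, and 84.0 and 82.6 CPM with the inhibitor (1.16 ± 0.09). The prolyl isomerase genes Fkbp10 (2.59 ± 0.20) and Fkbp14 (2.18 ± 0.21) and the transcription factor gene Creb3l2 (2.42 ± 0.13) rose more, and Mia2, listed in the table as Ctage5, fell by 0.36 ± 0.08. With ibuprofen over TGFb1+BMP4, 4 were higher and none lower, namely the COPII coat genes Sec23a (0.61 ± 0.10) and Sec24d (0.63 ± 0.10), Mia2 (0.36 ± 0.08) and Fkbp14 (0.90 ± 0.21). The 4 were 2, Sec23a and Sec24d, without TGFb1+BMP4 replicate 2 or without TGFb1+BMP4+ibuprofen replicate 1, and Fkbp14 lost its call when any 1 of the 4 ligand libraries was left out (limma adjusted p = 0.0673 to 0.0892). The fall of Mia2 over the inhibitor was not called without either inhibitor library (adjusted p = 0.0674 and 0.0589). With TGFb1+BMP4+ibuprofen over the inhibitor 7 were higher and none lower.

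Of 8 procollagen processing genes 7 were tested, and 6 rose and none fell with TGFb1+BMP4, with a median of 2.01. The 6 were 4 without TGFb1+BMP4 replicate 2, where Adamts2 was not called (0.88, limma adjusted p = 0.0995) and Adamts3 did not reach the filter. The procollagen C-proteinase gene Bmp1 had 81.2 and 59.1 CPM with TGFb1+BMP4+ibuprofen, 140.0 and 137 CPM with TGFb1+BMP4, and 16.6 and 15.3 CPM with the inhibitor. It rose by 3.05 ± 0.15 with TGFb1+BMP4 and was lower with ibuprofen (-0.92 ± 0.15, adjusted p = 0.00335). Its relative Tll1 had 60.5 and 58.8 CPM with TGFb1+BMP4+ibuprofen, 41.1 and 39.0 CPM with TGFb1+BMP4, and 0.450 and 0.650 CPM with the inhibitor, rose by 4.72 ± 0.15 and was higher with ibuprofen (0.63 ± 0.15, adjusted p = 0.0215). The C-proteinase enhancer gene Pcolce (2.01 ± 0.21 with TGFb1+BMP4, -1.15 ± 0.21 with ibuprofen) and the N-proteinase gene Adamts3 (1.69 ± 0.28 and -1.64 ± 0.28) were the other 2 lower with ibuprofen. With ibuprofen, Tll1 lost its call when any 1 of the 4 ligand libraries was left out (limma adjusted p = 0.0618 to 0.131), Pcolce was not called without TGFb1+BMP4+ibuprofen replicate 1 (adjusted p = 0.0519), and Adamts3 did not reach the filter without either TGFb1+BMP4 library. With TGFb1+BMP4+ibuprofen over the inhibitor 4 were higher and none lower.

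Of 9 collagen receptor genes 8 were tested, and 6 rose and none fell with TGFb1+BMP4, with a median of 1.35. The integrin gene Itga11 (3.54 ± 0.22), the collagen uptake receptor gene Mrc2 (3.24 ± 0.17), the discoidin receptor gene Ddr1 (1.19 ± 0.11) and the integrin beta chain gene Itgb1 (0.66 ± 0.13) were among them. Itgb1 was the 1 receptor gene called with ibuprofen over TGFb1+BMP4 (0.76 ± 0.13, adjusted p = 0.0045), at 908 and 861 CPM with TGFb1+BMP4+ibuprofen and 485 and 618 CPM with TGFb1+BMP4. Itga2 was called too without TGFb1+BMP4 replicate 1 (1.68, adjusted p = 0.0147) or TGFb1+BMP4+ibuprofen replicate 2 (1.72, adjusted p = 0.0183), and the replicate block called 3 receptor genes, adding Itga2 (limma adjusted p = 0.00412) and Ddr2 (0.0299). With TGFb1+BMP4+ibuprofen over the inhibitor 6 were higher and none lower. Itga1 went against the list without a call (-1.05), and was called lower there with the replicate block (limma adjusted p = 0.0239). Its change was -1.76 without TGFb inhibitor replicate 1, where it was also called lower. With TGFb1+BMP4 over the inhibitor Itga1 changed by -0.77 without a call. Without that library it changed by -1.475 and was called lower.

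Equal replicate numbers went together for the collagens. The second library was above the first in all 3 groups for 17 of the 33 tested genes, and below it in all 3 for 2, against 2728 and 2665 of the 18241 genes tested. Fibrillar genes gave 5 of 10, type IV 4 of 6 and type VI 3 of 3 with the second library above in every group. The same held for 5 of 9 tested fibroblast markers, and 1 was below in every group.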

How the data were processed

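Per the labels' protocols, an E.Z.N.A. kit gave the RNA, Ovation Solo the libraries and a NovaSeq instrument the reads. The submitters' processing notes name STAR 2.5.3a, Cell Ranger 3.1.0, HTSeq, edgeR and GRCm38/mm10 without stating roles, and strand use is not given in the sources used here. The authors deposited 1 table. It holds a signal per library, scaled by the authors to totals of 20010331 to 20013923 and rounded up, and CPM, which equal the signal over its column total. The table's columns of log2 fold changes, p-values and scores, deposited by the authors, were not used here.

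CPM were divided by trimmed-mean factors (TMM, trims of 30% and 5%), log2 values were taken after adding 1, and limma 3.58.1 (R 4.3.3) was fitted over 18241 genes with at least 1 CPM in 2 libraries, with 1 term per group, all 6 libraries, 3 residual degrees of freedom and a mean-variance trend. Tests were two-sided with Benjamini-Hochberg adjustment over all genes tested at 0.05. The fit was tested on simulated reads with the same fixed spread for every gene, which does not bear on calls near the threshold. Means and SD are of deposited CPM. Reads were recovered from the grid of the scaled values (within 0.212 of a whole read) for depth, floors of 3 reads and counting intervals. PCR copies are not independent molecules. Level per length used the longest coding transcript in GENCODE vM21, to which all 44 genes were matched by identifier.

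Deviations of equally numbered libraries from their group means were correlated over all genes tested. The correlation was 0.258 (TGFb1+BMP4+ibuprofen with TGFb1+BMP4), 0.190 (TGFb1+BMP4 with inhibitor) and 0.174 (TGFb1+BMP4+ibuprofen with inhibitor). The labels do not say what a number marks, and these values cannot settle whether equal numbers pair the libraries. The reported fit did not pair them, and the replicate number entered only as a block among the alternatives. Collagens with a group mean of at least 5 CPM were named with all values, and from each list up to 4 genes with the smallest adjusted p. The members and lists were chosen with earlier results of these data known. A further marker list is not reported here.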

Additional observations from a re-analysis of the deposited data

How the results depend on the processing

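The 13 alternatives to the reported fit were no scaling factors, relative-log factors (RLE), pseudocounts of 0.25 and 4, no filter, a filter at 5 CPM, replicate number as a block and each library left out. A planned count test on recovered reads (edgeR) was not run. Collagens called with TGFb1+BMP4 over the TGFb inhibitor numbered 29, 25 to 30 under the alternatives and 27 to 29 with a library left out. With TGFb1+BMP4+ibuprofen over the inhibitor they numbered 27, 25 to 28 under the alternatives and 25 to 27 with a library left out. With TGFb1+BMP4+ibuprofen over TGFb1+BMP4 the 14 calls were 8 with no filter and 7 to 13 with a library left out, and 12 to 18 in the other settings. All genes called in that comparison, 3603, were 2354 with no filter, and those over the inhibitor, 7419, were 4678 and 4909 without TGFb inhibitor replicate 1 and 2. With replicate number as a block the collagens called were 30, 28 and 18 in these 3 comparisons, and the block changed no collagen call other than those given with the results. The calls of Col1a1 (adjusted p = 0.123), Col3a1 (0.138), Col5a2 (0.14), Col4a6 (0.0676), Col6a2 (0.133) and Col19a1 (0.0653) for ibuprofen, of Col9a3 for TGFb1+BMP4 over the inhibitor (0.0504), and of Col11a1 (0.0724) and Col11a2 (0.0744) for TGFb1+BMP4+ibuprofen over the inhibitor, were lost with no filter in limma, where more genes were tested. Col4a6 was also lost with a pseudocount of 0.25 (-1.41, adjusted p = 0.0918), Col5a2 with RLE factors (0.051), a pseudocount of 0.25 (0.0543) and a filter at 5 CPM (0.0527), and Col11a1 over the inhibitor with a pseudocount of 4 (0.43, adjusted p = 0.118). With no filter, limma also called collagens that the reported fit did not test. Col2a1 was lower with TGFb1+BMP4 over the inhibitor (-0.52, adjusted p = 0.0357), on 1 read against 8. Col13a1 was higher with TGFb1+BMP4+ibuprofen over the inhibitor (0.59, adjusted p = 0.0364), on 9 reads against 2. The cause of these changes in calls was not tested. With a library left out, some values changed sign, without a call where they did. For TGFb1+BMP4+ibuprofen over TGFb1+BMP4 the ranges were -0.294 to 0.785 for Col16a1, -0.108 to 0.026 for Col5a3, -0.168 to 0.015 for Col20a1, -0.386 to 0.017 for Col4a2, -0.531 to 0.275 for Col6a3, -0.459 to 0.23 for Col23a1 and -0.239 to 0.015 for the FACIT median. The sign changed without TGFb1+BMP4 replicate 1 for Col16a1 and Col5a3, without TGFb1+BMP4 replicate 2 for the other 5, and without TGFb1+BMP4+ibuprofen replicate 1 for Col6a3. For TGFb1+BMP4 over the inhibitor Col10a1 ranged from -0.076 to 0.49, negative without TGFb inhibitor replicate 2. Of 1260 tests of the 33 tested collagens under alternatives, 1190 kept direction and call, 46 lost a call, 16 gained one and 8 changed sign. Without scaling factors the share of all calls that were higher with ibuprofen over TGFb1+BMP4 was 43.2% in place of 54.3%, while the collagens were 3 higher and 12 lower in place of 3 and 11. With 2 libraries a group, genes under about 5 CPM rest on few reads. A left-out library leaves 1 in its group, which is then assumed to vary like the other groups.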
